A study of Mus musculus with 2 samples.

Results

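The genes described here are 48 genes of DNA replication and of the passage from G1 into S phase, found by their symbols among 22886 genes in 2 RNA sequencing libraries of mouse tumors. All 48 were listed in both libraries, and 47 of them were among the 10982 genes kept, those whose RPKM (reads per kilobase of transcript, scaled to the size of the library) averaged at least 1 over both libraries. The exception was Orc1. The 48 genes were proposed with earlier results of these libraries in view, so their differences are given as a description with no test.

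Both libraries were labelled as polyA RNA of aerobic tumor cells sorted by flow cytometry from subcutaneous Lewis lung carcinoma (LLC), a mouse lung tumor line grown under the skin, in wild type C57BL/6 mice. One library came from mice injected with vehicle and 1 from mice injected with clodronate, a drug that kills macrophages that take it up. Age, sex, number of animals, dose and the gate of the sort are not given in the sources used here, and a growth protocol in the labels names EML cells, a blood progenitor line, which conflicts with the other labels. Each condition has 1 library, so a difference has no replicate check, and library and condition cannot be told apart. In bulk RNA, fewer cycling cells and less RNA per cycling cell cannot be told apart either.

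Before S phase, the origin recognition complex, Cdc6 and Cdt1 load the ring-shaped MCM2-7 helicase onto DNA. Cdc45 and the GINS complex then join MCM2-7 to form the active helicase, polymerases copy the strands behind it, and PCNA, a clamp loaded by replication factor C (RFC), keeps the polymerases on their template. Cyclin E with its kinase drives entry into S phase, and E2F transcription factors, released from the retinoblastoma protein, drive transcription of many replication genes.

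The depth of each library could be estimated, because low RPKM values fall on multiples of what 1 read is worth. This gave 13.8 M reads for vehicle and 11.3 M for clodronate, and 73.7% of 517 and 76.5% of 979 low values lay within 0.1 of a whole read, where 20% would by the width of that window alone. The loci of 1 read that set each depth are among these values, so part of the excess follows from the fit. From these depths, each gene's reads and a 95% interval of its ratio of clodronate to vehicle RPKM were estimated. The intervals cover counting error only.

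Replication genes were mostly higher in the clodronate library. Of the 47 genes kept, 13 were at least 2-fold higher, or 27.7%, against 6.95% of all genes kept, and 0 were at least 2-fold lower, against 6.77% of all genes kept. Differences are given as a log2 ratio, for which 1 RPKM was added to the clodronate and the vehicle value before the former was divided by the latter. The added RPKM makes the difference of genes with low values look smaller than it is. The median log2 ratio was 0.72 over the 47 genes and 0.019 over all genes kept, and 35 of the 47 lay above 0, against 51.6% of all genes kept. The median level of the 47 was 6.61 RPKM in the vehicle library and 11.1 RPKM in the clodronate library. The 13 genes were Mcm2, Mcm3, Mcm5, Mcm7, Cdc45, Prim1, Rpa2, Rpa3, Lig1, Rrm1, Rrm2, Chaf1a and E2f1. At a 3-fold limit only Mcm2 and Rpa3 remained on the higher side, where 2.86% of all genes kept were past it, and 0 remained on the lower side, where 2.32% were.

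The pattern was not even over the steps of replication. Genes that bind single-stranded DNA, load and start the helicase, copy chromatin and regulate G1/S had medians between 0.78 and 1.07, while the clamp and its loader had a median of -0.33 with 1 of 6 genes above 0. The counting interval of the ratio lay above 1 for 32 of the 47 genes, against 39.1% of the 10697 genes kept with an interval, below 1 for 7, against 36%, and spanned 1 for 8. With Orc1, it lay above 1 for 33 of the 48. The 7 were Orc6, Cdc6, Pola1, Rfc2, Rfc3, Rfc5 and Ccne2.

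**Figure D1:**
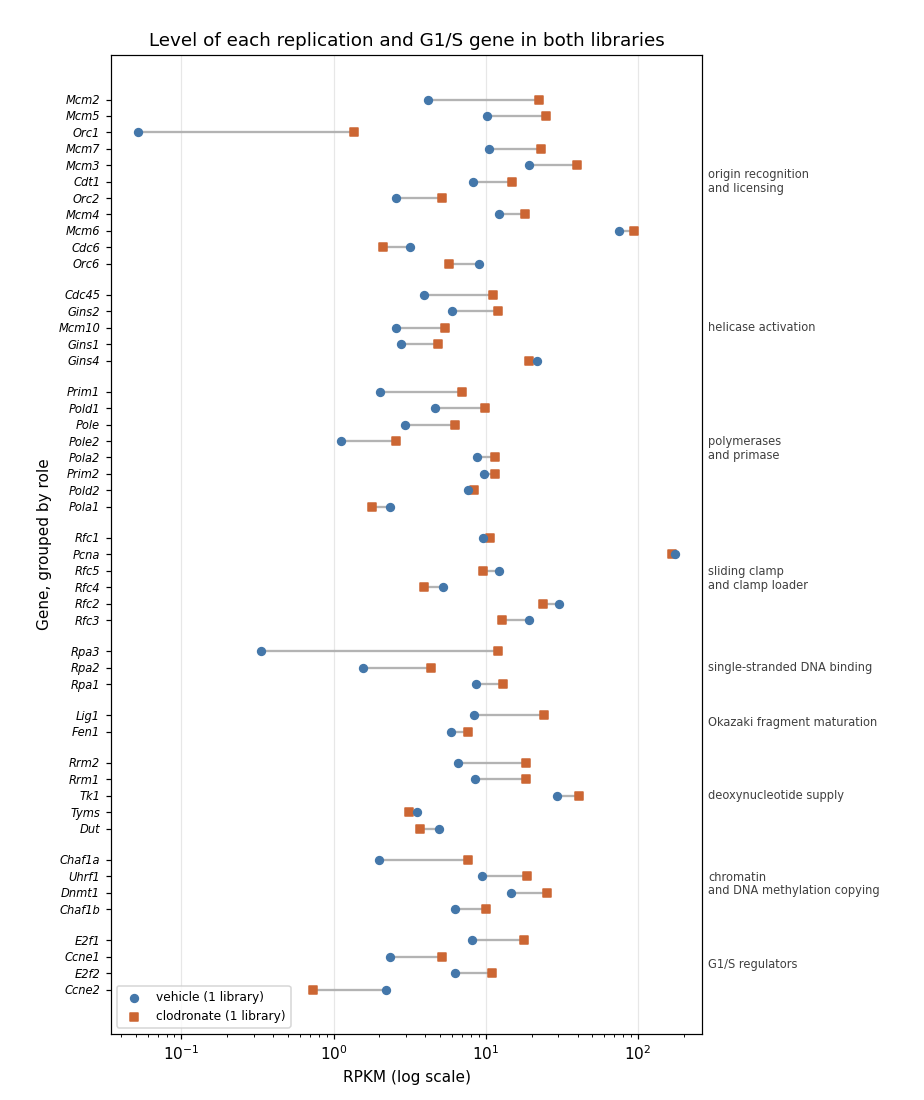
Level in RPKM, on a log axis, of each of the 48 genes in the vehicle library (circles) and the clodronate library (squares), grouped by role, with 1 library per condition and so no error bars. The longest lines belong to Rpa3 and Orc1, which were near 0 in the vehicle library, and Pcna and Mcm6 had the highest levels in both.

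Stretches of DNA near the start sites of Mcm2, Mcm3, Mcm5, Mcm6 and Mcm7, which encode subunits of the helicase, and of Rpa3, the gene with the highest log2 ratio, are printed to show what the letters that E2F proteins are known to bind look like in these genes. They come from RefSeq, assembly GRCm38.p6, in which 40 of the 48 genes had an entry of 250 bases before to 50 bases after the start site. Mcm4 was among the 8 without an entry. Capitals mark the E2F words searched, TTTCCCGC, TTTCGCGC, TTTGCCGC and TTTGGCGC on either strand, and the word CCAAT on either strand, which the factor NF-Y is known to bind. Each is written 5′ to 3′ on the strand of its gene. Mcm5 lies at chr8:75109332-75109391 on the plus strand, Mcm6 at chr1:128359780-128359839, Mcm3 at chr1:20820275-20820304 and Mcm7 at chr5:138172030-138172059, all 3 on the minus strand.
Mcm5: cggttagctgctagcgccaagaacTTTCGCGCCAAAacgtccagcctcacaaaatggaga
Mcm6: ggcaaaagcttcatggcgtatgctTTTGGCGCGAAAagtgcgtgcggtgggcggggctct
Mcm3: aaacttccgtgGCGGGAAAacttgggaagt
Mcm7: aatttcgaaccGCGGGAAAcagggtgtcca

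In Mcm5 and in Mcm6 a pair of E2F words, 1 on each strand, overlap in 1 run of capitals. No E2F word was found in the entries of Mcm2 and Rpa3, the genes kept that were past 3-fold with 1 RPKM added. The Mcm2 stretch, at chr6:88898781-88898880 on the minus strand, ends at the base before the start site and holds no capitals, although CCAAT is present elsewhere in the entry of Mcm2. The Rpa3 stretch, at chr6:8259174-8259273 on the minus strand, holds CCAAT on the opposite strand at 2 places.
Mcm2: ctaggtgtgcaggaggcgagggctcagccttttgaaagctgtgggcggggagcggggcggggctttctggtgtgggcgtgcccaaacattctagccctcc
Rpa3: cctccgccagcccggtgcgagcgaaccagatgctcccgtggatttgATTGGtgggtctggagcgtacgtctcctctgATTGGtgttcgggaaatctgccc

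Of the 40 genes with an entry, 15 had an E2F word, or 37.5%. This was so for 4.89% of 8366 genes kept with an entry and 2.6% of all 27025 genes with an entry. CCAAT was in 25 of the 40, or 62.5%, against 42.8% of genes kept with an entry. The 14 genes kept with an E2F word had a median log2 ratio of 0.77 and 4 of them were at least 2-fold higher. The 25 without one had a median of 0.60 and 9 were at least 2-fold higher. Over all genes kept, 6.95% were at least 2-fold higher. A match is a description of letters in this window and not a bound site.

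All 6 MCM2-7 genes, which encode the subunits of the replicative helicase, were higher in the clodronate library, each with a counting interval above 1. Mcm2 had 4.19 RPKM in the vehicle library and 22.4 RPKM in the clodronate library, a ratio of 5.34 with an interval of 4.54 to 6.30 from about 183 and 798 reads. It was the member of the ring with the lowest level in the vehicle library and the one with the largest ratio. Mcm5 had 10.2 and 24.8 RPKM, a ratio of 2.44. Mcm7 had 10.4 and 22.9 RPKM, a ratio of 2.201, and Mcm3 had 19.1 and 39.9 RPKM, a ratio of 2.08. These 3 genes lay close together, each a little above 2-fold. Mcm4 had 12.2 and 18.1 RPKM, a ratio of 1.48 with an interval of 1.32 to 1.66.

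Mcm6 stood apart within the ring by its level, at 75.2 RPKM for vehicle and 93.8 RPKM for clodronate, a ratio of 1.25 with an interval of 1.18 to 1.31. The 6 subunits join the ring in equal numbers, and their RPKM, a level per length, spanned 17.9-fold from Mcm2 to Mcm6 in the vehicle library and 5.18-fold from Mcm4 to Mcm6 in the clodronate library. The summed level of the 6 genes was 131 RPKM for vehicle and 222 RPKM for clodronate. Without Mcm6 the sums were 56.2 and 128 RPKM, a ratio of 2.28.

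The genes that mark origins and load the ring differed in both directions. Cdt1, a loading factor, had 8.25 RPKM for vehicle and 14.9 RPKM for clodronate. Cdc6, its partner in loading, went the other way with 3.20 and 2.12 RPKM, a ratio of 0.662 with an interval of 0.501 to 0.878. Of the origin recognition complex, Orc2 had 2.57 and 5.12 RPKM, and Orc6 had 9.06 and 5.75 RPKM, a ratio of 0.634 with an interval of 0.476 to 0.845. Orc1, the large subunit whose level is known to follow the cell cycle, had 0.0517 RPKM in the vehicle library and 1.36 RPKM in the clodronate library. These values correspond to about 2 and 43 reads and a ratio of 26.3, with an interval of 6.86 to 224. Its mean of 0.706 RPKM was under the limit for genes kept.

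Factors that turn the loaded ring into a working helicase were higher apart from Gins4. Cdc45, which joins the ring at firing, had 3.95 RPKM for vehicle and 11.1 RPKM for clodronate, a ratio of 2.81 with an interval of 2.19 to 3.61. Mcm10, needed for activation, had 2.58 and 5.38 RPKM. The GINS genes did not share 1 difference: Gins2 had 6.00 and 12.03 RPKM, Gins1 had 2.79 and 4.84 RPKM, and Gins4 had 21.7 and 19.3 RPKM with an interval that spanned 1. The locus given for Gins2 spans 12.8 times the RefSeq gene, and 70.7% of its exonic bases in GENCODE are shared with Gse1, so its reads may be those of both genes.

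Among polymerase genes, catalytic subunits of the leading and lagging strand enzymes were higher and the large subunit of polymerase alpha was lower. Prim1, the catalytic subunit of primase, had the largest difference of this group, with 2.02 RPKM for vehicle and 6.95 RPKM for clodronate, a ratio of 3.44 with an interval of 2.39 to 5.20 from about 38.4 and 108 reads. Pold1, the catalytic subunit of polymerase delta, had 4.62 and 9.83 RPKM, and Pole, that of polymerase epsilon, had 2.94 and 6.30 RPKM. Their ratios, 2.13 and 2.14, were nearly equal. Pole2, an accessory subunit of epsilon, had 1.12 and 2.56 RPKM from about 23.2 and 43.2 reads. Pold2, an accessory subunit of delta, had 7.58 and 8.34 RPKM with an interval that spanned 1, and its locus spans 2.70 times the RefSeq gene.

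Polymerase alpha, which extends the primers, and primase work as 1 complex of 4 subunits. Pola1, its catalytic subunit, had 2.34 and 1.78 RPKM, a ratio of 0.760 with an interval of 0.587 to 0.976. Pola2 had 8.69 and 11.5 RPKM, and Prim2, the large primase subunit, had 9.79 and 11.5 RPKM with an interval that spanned 1. The 4 subunits therefore differed among themselves beyond counting error, from Pola1 below 1 to Prim1 above 1.

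Of the 6 genes of the clamp and its loader, 0 were at least 2-fold higher, against 6.95% of all genes kept. So few genes at that share do not stand apart from other genes by this count. Pcna was the most abundant of the 48 genes, at 176 RPKM for vehicle and 167 RPKM for clodronate, a ratio of 0.949 with an interval of 0.901 to 1.001. Only 4.42% of genes kept had a higher level in the vehicle library and 4.63% in the clodronate library. Rfc1, the large subunit that is specific to the loader of PCNA, had 9.54 and 10.6 RPKM, and its interval spanned 1.

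The other 4 loader genes, whose products are shared with alternative loader complexes, were lower in the clodronate library. Rfc3 had 19.3 RPKM for vehicle and 12.7 RPKM for clodronate, a ratio of 0.660 with an interval of 0.542 to 0.805. Rfc2 had 30.2 and 23.7 RPKM, and Rfc5 had 12.2 and 9.55 RPKM, with ratios of 0.782 and 0.785 and both intervals below 1. Rfc4 had 5.23 and 3.95 RPKM with an interval that spanned 1. Of their exonic bases, 19.1% of Rfc2 are shared with Lat2, 15.4% of Rfc5 with Wsb2 and 12.1% of Rfc4 with Eif4a2. The 5 loader genes summed to 76.5 RPKM for vehicle and 60.5 RPKM for clodronate. Atad5, Chtf18 and Dscc1, genes of alternative loaders, were chosen after their values were seen and do not stand for all genes of these loaders. Atad5 had 1.98 and 4.09 RPKM, and Chtf18 had 1.30 and 2.69 RPKM. Dscc1 was listed at 0 for vehicle and had 4.02 RPKM for clodronate, so it was kept only through the clodronate library.

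Replication protein A, which coats single-stranded DNA at the fork, has 3 subunits, and all 3 were higher. Rpa3, the smallest, had 0.334 RPKM in the vehicle library and 12.1 RPKM in the clodronate library, with a log2 ratio of 3.29. This is about 2.16 and 62.6 reads over a transcript of 670 bases, and the ratio of 36.1 had an interval of 10.4 to 331. Rpa2 had 1.56 and 4.39 RPKM, a ratio of 2.81 with an interval of 1.84 to 4.25. Rpa1, the large subunit, had 8.66 and 12.96 RPKM, a ratio of 1.496. The levels of the 3 subunits, which bind DNA as a trimer, spanned 25.96-fold in the vehicle library and 2.95-fold in the clodronate library.

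**Figure D2:**
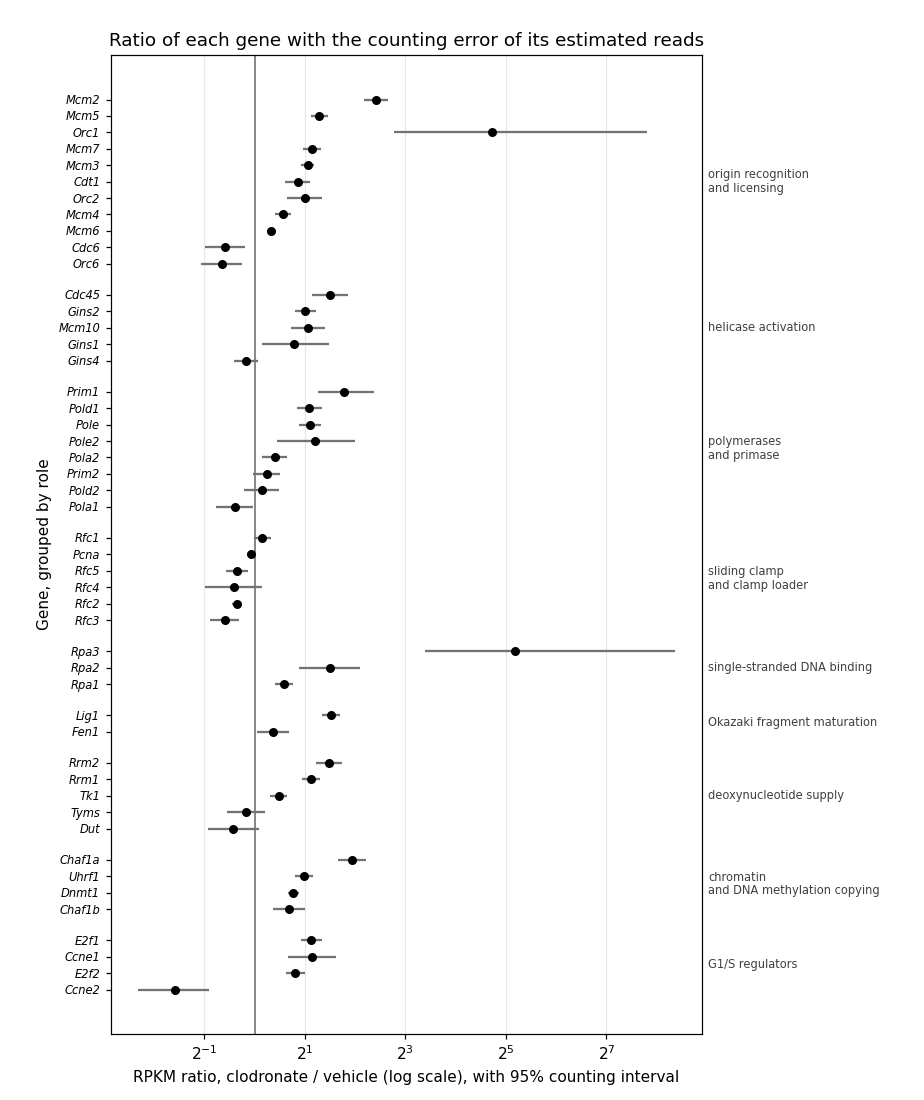
Ratio of clodronate to vehicle RPKM of each of the 48 genes on a log axis, with bars for the 95% interval from the estimated reads, which covers counting error only. The bars of 33 genes lie above 1, those of 7 below 1, and the widest belong to Rpa3 and Orc1.

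Genes that finish the lagging strand were both higher. Lig1, the ligase that joins Okazaki fragments, had 8.41 RPKM for vehicle and 24.05 RPKM for clodronate, a ratio of 2.86 with an interval of 2.52 to 3.25. Fen1, the nuclease that trims their flaps, had 5.91 and 7.61 RPKM, a ratio of 1.29 with an interval of 1.03 to 1.61. The locus given for Lig1 spans 1.53 times the RefSeq gene.

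In the supply of deoxynucleotides, both subunits of ribonucleotide reductase, the enzyme that makes deoxynucleotides from ribonucleotides, were higher to a similar degree. Rrm1 had 8.43 RPKM for vehicle and 18.3 RPKM for clodronate, a ratio of 2.18 with an interval of 1.93 to 2.45. Rrm2, the subunit that is limiting in the cell cycle, had 6.61 and 18.4 RPKM, a ratio of 2.78 with an interval of 2.33 to 3.34. Their levels per length were nearly equal in the clodronate library. The enzymes of thymidine supply differed less. Tk1, thymidine kinase, had 29.4 and 40.9 RPKM, and its locus spans 2.31 times the RefSeq gene. Tyms, thymidylate synthase, had 3.55 and 3.14 RPKM, and Dut, which removes dUTP, had 4.93 and 3.67 RPKM, and both of their intervals spanned 1.

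The genes that copy chromatin and DNA methylation behind the fork were all higher. Chaf1a, the large subunit of the chromatin assembly factor that places new histones, had 1.99 RPKM for vehicle and 7.59 RPKM for clodronate, a ratio of 3.82 with an interval of 3.16 to 4.63, although 33.6% of its exonic bases are shared with Ubxn6. Its partner Chaf1b had 6.24 and 9.98 RPKM, a ratio of 1.6002. Dnmt1, the maintenance DNA methyltransferase, had 14.7 and 25.1 RPKM, and Uhrf1, which brings it to newly copied DNA, had 9.43 and 18.6 RPKM.

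Among the regulators, the cyclin E genes went in opposite directions. E2f1 had 8.13 RPKM for vehicle and 17.7 RPKM for clodronate, and E2f2 had 6.24 and 11.0 RPKM. Ccne1, cyclin E1, had 2.36 and 5.17 RPKM, a ratio of 2.19 with an interval of 1.58 to 3.09. Ccne2, cyclin E2, had 2.19 and 0.728 RPKM, a ratio of 0.332 with an interval of 0.199 to 0.530 from about 84.7 and 22.9 reads. It had the lowest log2 ratio of the 47 genes, -0.89, just inside the 2-fold limit on the scale with 1 RPKM added. Its locus spans 4.38 times the RefSeq gene, and 10.5% of its exonic bases are shared with Ints8.

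**Figure D3:**
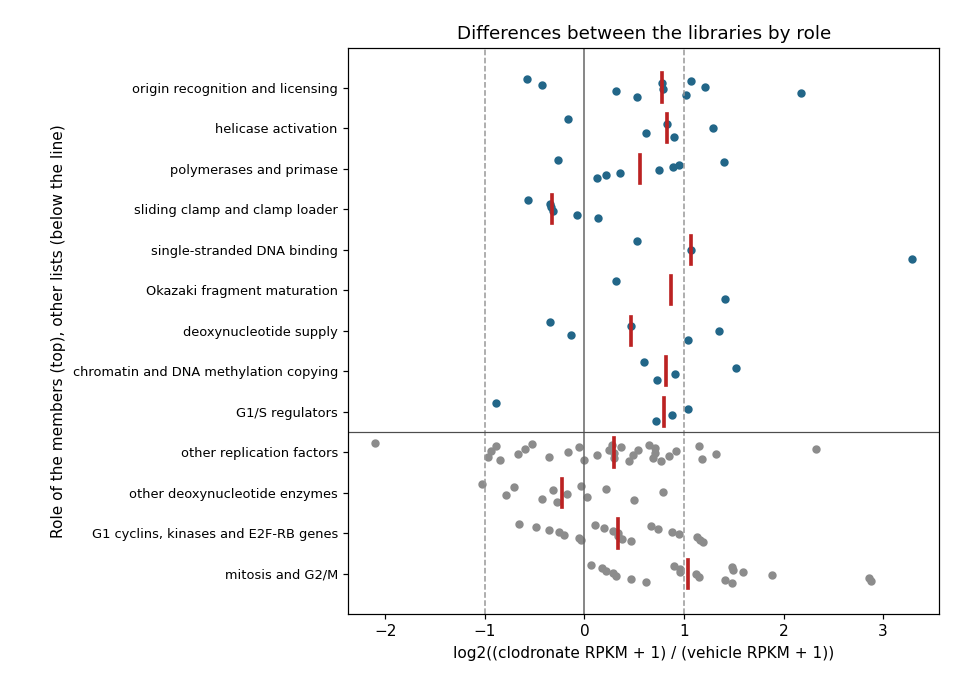
Log2 ratio of each gene kept, with the members by role above the line and other lists of the cell cycle below it, short bars for medians and dashed lines at 2-fold. The clamp and its loader lie mostly left of 0, and all 20 genes of the mitosis list lie right of it.

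The level of a gene affects how often it passes the 2-fold limit, so the counts were also read within bands of mean level. At 5 to 15 RPKM, 6 of 20 members were at least 2-fold higher, against 5.79% of genes in that band. At 15 RPKM and above, it was 4 of 12 against 3.25%. In the lowest band, 1 to 5 RPKM, it was 3 of 15 against 13.8%, with a median log2 ratio of 0.75. Rpa3 was kept only through the clodronate library and Ccne2 only through the vehicle library, since the level of each was below 1 RPKM in the other.

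Other genes of the same processes gave a mixed picture. Of 32 further replication factors kept, 4 were at least 2-fold higher and 1 was at least 2-fold lower, with a median log2 ratio of 0.30, and the shares over all genes kept were 6.95% and 6.77%. The 4 were Dscc1, Rnaseh2b, Ticrr and Timeless. Dscc1, Ticrr and Timeless had 0, 0.872 and 0.972 RPKM for vehicle and so were kept only through the clodronate library. Among factors averaging at least 5 RPKM, 1 was at least 2-fold higher and 1 lower, against 4.35% and 4.47% of genes. Rnaseh2b, a subunit of the nuclease that removes ribonucleotides from DNA, had 5.09 and 14.3 RPKM. The 1 at least 2-fold lower was Pole4, a small histone-fold subunit of polymerase epsilon, with 28.9 RPKM for vehicle and 5.96 RPKM for clodronate. Pole and Pole4, of the same enzyme, thus differed in opposite directions. Slbp, which binds histone mRNA, had 36.2 and 19.1 RPKM, and Hells, a chromatin remodeller, had 8.14 and 3.76 RPKM.

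Other enzymes of deoxynucleotide supply differed in both directions. Of 12 kept, 0 were at least 2-fold higher and 1 was at least 2-fold lower, against 6.95% and 6.77% of all genes kept. The median log2 ratio was -0.22. The 1 at least 2-fold lower was Rrm2b, the reductase subunit that p53 is known to induce and that serves cells outside S phase, with 5.44 RPKM for vehicle and 2.15 RPKM for clodronate. Samhd1, which degrades deoxynucleotides, had 126 and 124 RPKM, and Nme2, a nucleoside diphosphate kinase, had 588 and 360 RPKM. Higher in the clodronate library were Dck, which phosphorylates deoxycytidine, with 10.1 and 18.2 RPKM and a ratio of 1.81, and Umps, of pyrimidine synthesis, with 8.47 and 12.4 RPKM and a ratio of 1.46.

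Of 21 genes of G1 cyclins, their kinases and the E2F and retinoblastoma families, 3 were at least 2-fold higher, 0 were at least 2-fold lower and the median log2 ratio was 0.34, again beside 6.95% higher and 6.77% lower over all genes kept. Ccnd1, cyclin D1, had 15.005 RPKM for vehicle and 34.8 RPKM for clodronate, E2f6, a repressor of the E2F family, had 4.72 and 11.5 RPKM, and Cdc25a, a phosphatase that activates the kinases, had 1.61 and 4.96 RPKM. The kinases themselves differed less, with 41.7 and 52.8 RPKM for Cdk4, 31.0 and 39.4 RPKM for Cdk6 and 21.7 and 24.99 RPKM for Cdk2. Myc, a transcription factor of growth, had 22.7 and 44.7 RPKM. Of the inhibitors of these kinases, Cdkn1a had 239 and 229 RPKM and Cdkn1b had 33.9 and 21.2 RPKM, while Cdkn2a and Cdkn2b were listed at 0 in both libraries.

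Genes of mitosis, the stage that follows, lay further from 0 than the replication genes. Of 20 genes kept, 10 were at least 2-fold higher, against 6.95% of all genes kept, and 0 were at least 2-fold lower, against 6.77%. All 20 were above 0, against 51.6% of all genes kept, and the median log2 ratio was 1.04. Birc5, a subunit of the complex that corrects chromosome attachment, had 2.81 RPKM for vehicle and 27.1 RPKM for clodronate. Ndc80, of the kinetochore, had 0.690 and 11.3 RPKM and was kept only through the clodronate library. Cdc20, an activator of the anaphase ligase, had 3.67 and 16.2 RPKM. At the other end, Bub1b, a checkpoint kinase, had 8.4996 and 8.93 RPKM, and Cdk1, the mitotic kinase, had 5.74 and 8.33 RPKM. The difference between the mitotic and the replication genes was not tested.

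**Figure D4:**
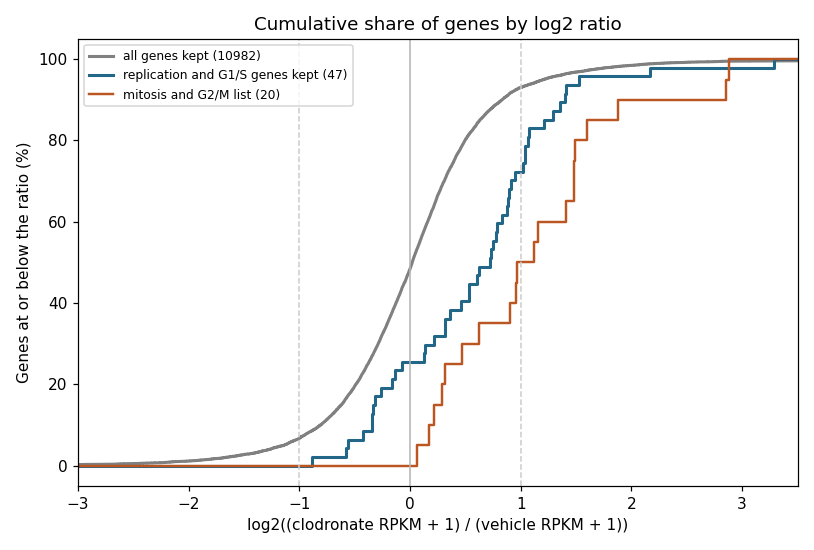
Share of genes, in percent, at or below each log2 ratio for all 10982 genes kept, the 47 replication and G1/S genes and the 20 genes of the mitosis list. Both lists lie to the right of all genes, with medians of 0.72 and 1.04 against 0.019.

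Markers of other cells were read beside these differences. The libraries, labelled as tumor cells, were rich in macrophage markers: the 11 found of 12 listed summed to 26526 RPKM for vehicle and 25355 RPKM for clodronate. Their median log2 ratio was 0.06 and 0 were at least 2-fold higher or lower, against 6.95% and 6.77% of all genes kept. They differed in both directions, 7 above 0, against 51.6% of all genes kept, and 4 below. The range ran from C1qc (3984 and 2043 RPKM) to Mrc1 (174 and 289 RPKM). Of 8 epithelial markers, Epcam, Krt19 and Cldn4 were listed at 0 in both, and the sums were 16.9 and 11.0 RPKM. Of the 4 epithelial markers kept, 2 were at least 2-fold lower, against 6.77% of all genes kept. Krt8 had 3.67 and 1.33 RPKM, and Krt7, kept only through the vehicle library, had 2.204 RPKM there and was listed at 0 for clodronate. The other 2 were slightly higher, with intervals that spanned 1: Cdh1 had 6.14 and 6.44 RPKM and Krt18 had 2.97 and 3.19 RPKM. Fibroblast markers, 8 of 10 kept, summed to 160 and 76.9 RPKM, mostly from Dcn (77.3 and 28.4 RPKM) and Col3a1 (62.1 and 34.4 RPKM). Of the 8 kept, 3 were at least 2-fold lower, against 6.77% of all genes kept. Of these 3, Postn was kept only through the vehicle library (2.21 and 0.364 RPKM). Below 0 lay 7 of the 8, where 51.6% of all genes kept lay above 0, while Col1a1 was higher (2.32 and 5.40 RPKM). Endothelial markers, 2 of 8 kept, summed to 3.34 and 8.26 RPKM. Of these, 1 was at least 2-fold higher, against 6.95% of all genes kept. This was Cdh5 (0.480 and 3.24 RPKM), kept only through the clodronate library. Vwf, not kept, was lower (0.967 and 0.443 RPKM). Neutrophil markers summed to 39.1 and 42.4 RPKM, blood progenitor markers to 6.81 and 5.33 RPKM, B cell markers to 2.99 and 1.74 RPKM, and T and NK cell markers to 0.837 and 2.05 RPKM. The part of any of these cells in the differences of replication genes was not tested.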

How the data were processed

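PolyA RNA of 2 libraries, 1 per condition, was compared, with groups taken from the labels. The authors deposited RPKM values for 23170 loci per library. The submitters' processing notes name CASAVA 1.8.2, TopHat2 2.0.9, Bowtie 0.12.9, Cufflinks 2.2.1, Cuffdiff and build mm9. The annotation release and the strand setting are not given in the sources used here. Without a strand setting, reads of overlapping genes may be shared, and 8 members share at least 10% of their exonic bases with another protein-coding gene (Ccne2, Chaf1a, Gins2, Mcm7, Orc2, Rfc2, Rfc4 and Rfc5).

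RPKM of lines with the same symbol were summed, and genes averaging at least 1 RPKM were kept. Symbols of 26 loci were stored as numbers and replaced by the accession. Differences are log2 ratios with 1 RPKM added, called at 2-fold. No p-value was computed. Reads were estimated from the value of 1 read and GENCODE transcript lengths, and exact binomial intervals at 95% were taken from them. The fold calls and the estimate of depth were tested on simulated data, and the other steps, the intervals among them, were not. Python 3.11.15, numpy 2.4.6, pandas 2.3.3, scipy 1.17.1 and matplotlib 3.10.9 were used.

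Members and lists were chosen with earlier results of these data known. Any member or marker could be named, and from the other lists any cyclin, kinase or inhibitor and the 3 highest and 3 lowest log2 ratios at a mean of at least 5 RPKM. Others were named after their values were seen, namely those making up counts of 5 or fewer and the alternative clamp loader genes. Alternatives were another pseudocount, filter, centring, scaling, row choice and fold limit, and, chosen after seeing the data, a correction for GC content and transcript length and the removal of members with few reads or wide loci.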

Additional observations from a re-analysis of the deposited data

How the results depend on the processing

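No paired analysis was possible because 1 library stands for each condition. The median log2 ratio of the members stayed between 0.60 and 0.77, and the number above 0 was 35 of 47 wherever these 47 were kept. With 0.1 RPKM added in place of 1 RPKM, 18 members were at least 2-fold higher, against 9.4% of all genes kept, and 1 was lower (Ccne2, -1.47), against 9.43%, and the single-stranded DNA binding genes had a median of 1.43. Among genes averaging at least 5 RPKM, 10 of 32 members were higher, against 4.35% of genes, and medians were 1.91 for single-stranded DNA binding, 0.29 for polymerases and primase, 1.04 for deoxynucleotide supply and 0.064 for other replication factors. At a 3-fold limit 2 members were higher, against 2.86%, and at a 1.5-fold limit 26 were higher, against 16.6%, and 1 was lower, against 16.3%. Upper quartile scaling left 10 higher, against 6.44%, without Mcm3, Rrm1 and E2f1, and the correction for GC content and transcript length, added after seeing the data, left 10, against 7%, without Mcm3, Mcm7 and E2f1. Without the 8 members of few reads, Orc1 among them, 10 were higher, and without the 5 of wide loci 12, both also chosen after seeing the data. These counts are out of fewer than 47 members, and the share over all genes kept was 6.95%. No member at least 2-fold higher changed sign under these settings. Estimated reads were under 50 in a library for 8 members, which limits the precision of Orc1, Gins1, Prim1, Pole2, Rfc4, Rpa2, Rpa3 and Ccne2.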
